A study of Mus musculus with 32 samples.

Results

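The genes of the epithelial sodium channel (Scnn1a, Scnn1b and Scnn1g), the anion channel Cftr, the pump regulators Fxyd3 and Fxyd4 and the pump subunit Atp1b1 were followed in the mouse uterus before and through pregnancy. They were taken by symbol, and all 7 were found among the 13439 genes with a named probe, on 8 of the 20169 probes that had passed the detection filter. Fxyd4 had 2 probes and each of the others had 1. The filter had kept probes detected on at least 1 array, which Scnn1a, Scnn1g, Cftr and Fxyd4 passed although no mouse of some groups was detected. RNA of the uterus was hybridised to Illumina MouseRef-8 v2 arrays, 1 wild-type FVB/N mouse per array and 32 arrays in all. The mice were adults with no transgene and no treatment. Groups of 4 mice were non-pregnant (NP), at embryonic day E6.5 or at E8.5, and groups of 5 mice were taken later, at E10.5 and E12.5 and then at E15.5 and E17.5. The non-pregnant mice were a random choice, and their stage of the oestrous cycle is not given. In pregnant mice RNA came from implantation sites cleared of conceptus and decidua, and RNA of the sites of a mouse was pooled. This dissection is described for pregnant mice only, so that pregnancy and dissection cannot be told apart in a comparison with NP.

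The epithelial sodium channel carries sodium from the lumen into epithelial cells and is built of an alpha (Scnn1a), a beta (Scnn1b) and a gamma (Scnn1g) subunit. Cftr releases chloride and bicarbonate into the lumen under the control of cyclic AMP. The sodium pump at the other face of the cell drives both movements. Its beta subunit Atp1b1 helps to bring the pump to the membrane, while the FXYD proteins Fxyd3 and Fxyd4 bind the pump and tune its handling of sodium and potassium. In the rodent uterus, secretion through Cftr and absorption through the sodium channel are known to set the amount of luminal fluid over the cycle and around implantation.

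**Figure D1:**
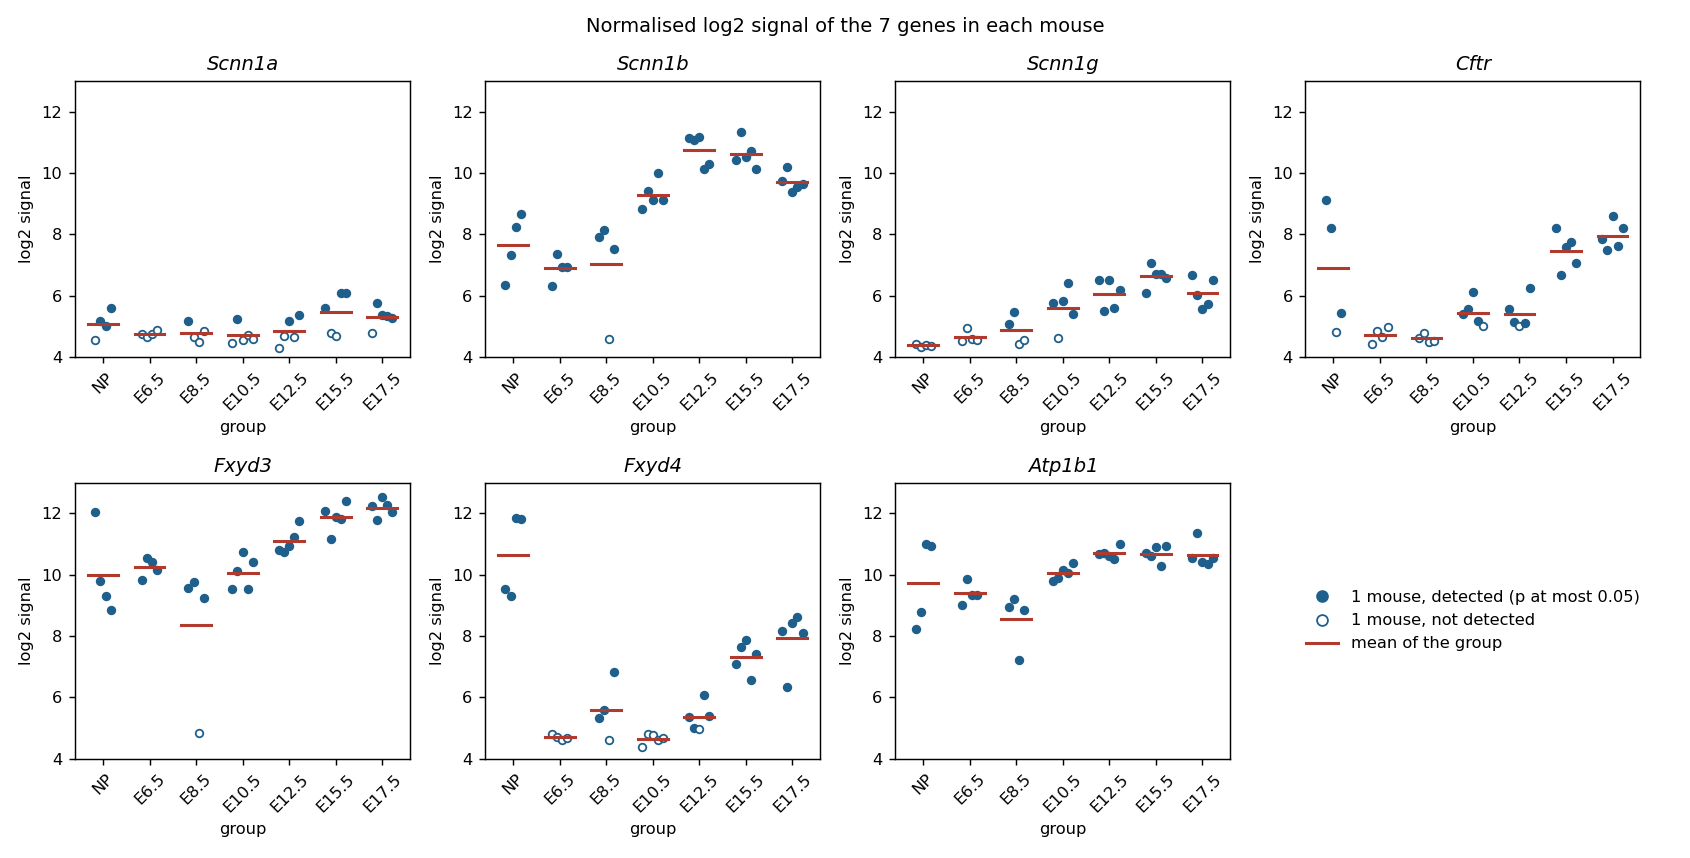
Normalised log2 signal (vertical axis) of each of the 7 genes in the 4 or 5 mice of each group (horizontal axis); filled points are mice in which the probe was detected, open points are mice in which it was not, and lines are group means. Every Scnn1b, Scnn1g and Atp1b1 value from E12.5 on lies above every E6.5 value, Fxyd4 is highest in the 4 NP mice, Cftr is high in 2 of them, and both are undetected at E6.5 and detected in all mice from E15.5.

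Each array detected between 13280 and 14357 probes, with a median of 13869. The 8 smooth muscle markers were high everywhere (group means of the list between 11.45 and 12.00 on the log2 scale). Of 18 epithelial markers 16 were measured, and the mean log2 signal of this list was 8.76 ± 1.09 (SD, n = 4) in NP, 7.11 ± 0.25 at E6.5 (n = 4), 6.88 ± 1.08 at E8.5 (n = 4), 8.10 ± 0.33 at E10.5 (n = 5) and 9.91 ± 0.17 at E17.5 (n = 5). In bulk tissue, fewer cells of a type and less RNA per cell cannot be told apart. Replicate 3 of E8.5 stood apart with an epithelial list mean of 5.31, against 7.09 to 7.72 in the other 3 mice of that day, and its Scnn1b and Fxyd3 probes were not detected. In 7 libraries (NP 3, E10.5 4, E12.5 3, E15.5 2 and 3, E17.5 2 and 5) the mean log2 signal of 13 placenta and yolk sac genes was more than 0.5 above the median of their group, up to 9.65 in replicate 2 of E17.5. Calls on the 7 genes and the lists that were lost without these libraries are given with the value without them. Leaving them out also makes their groups smaller. The part of the smaller groups in a lost call was not tested.

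**Figure D2:**
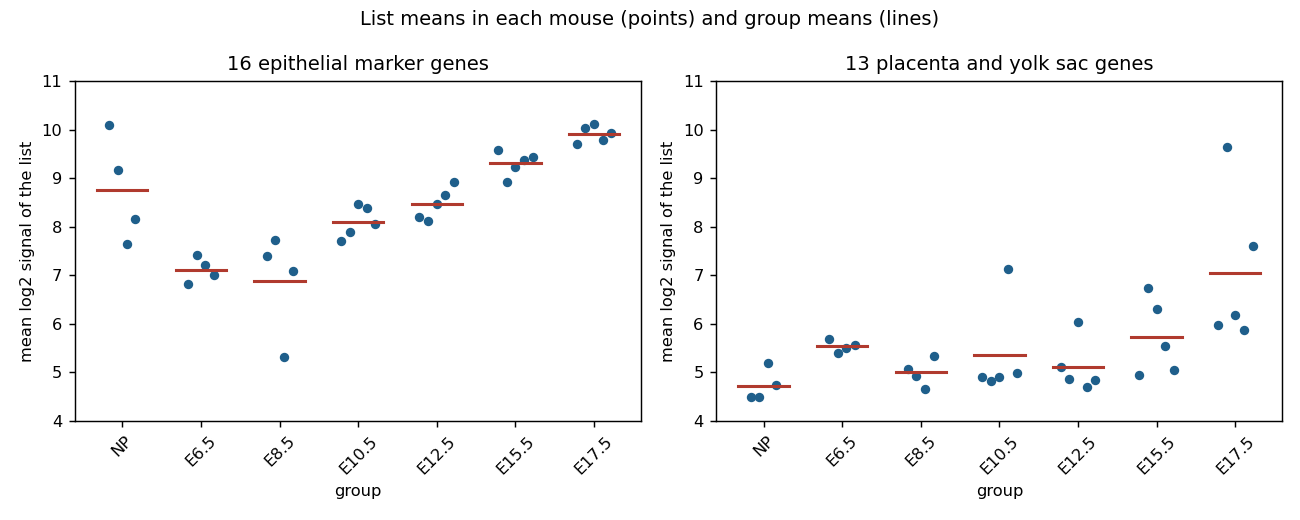
Mean log2 signal (vertical axis) of 16 epithelial genes (left) and of 13 placenta and yolk sac genes (right) in each mouse (points) with group means (lines). Epithelial genes are lowest in replicate 3 of E8.5 (5.31), and placenta and yolk sac genes are highest in replicate 2 of E17.5 (9.65).

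Promoter windows of 250 bases before to 50 after the start site are shown for 2 pairs of genes that shared called changes. Scnn1b and Scnn1g, neighbours on chromosome 7, were both higher from E12.5 on than at E6.5. Cftr and Fxyd4 both fell from NP to E6.5 and rose from E12.5 to E15.5. Over all arrays the first pair had a Pearson r of 0.825, below Scnn1b with Atp1b1 (0.846). The second had only 0.515, below Cftr with Fxyd3 (0.676). The sequences are RefSeq's on build GRCm38.p6, 5′ to 3′ on the strand of the gene, and 6 of the 7 genes had an entry. Capitals mark GC boxes (GGGCGG, or CCGCCC on the other strand) and ETS cores (AGGAAG, or CTTCCT). The Scnn1b window is chr7:121864788-121865087 on the plus strand, the Scnn1g window chr7:121734229-121734528 on the plus strand, the Cftr window chr6:18170437-18170736 on the plus strand and the Fxyd4 window chr6:117937286-117937585 on the minus strand.
Scnn1b: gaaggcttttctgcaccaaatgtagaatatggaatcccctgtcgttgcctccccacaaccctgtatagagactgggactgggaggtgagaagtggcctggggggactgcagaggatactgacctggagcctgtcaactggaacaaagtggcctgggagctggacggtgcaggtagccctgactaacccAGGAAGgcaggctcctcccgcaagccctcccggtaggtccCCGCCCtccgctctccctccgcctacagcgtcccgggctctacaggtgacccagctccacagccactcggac
Scnn1g: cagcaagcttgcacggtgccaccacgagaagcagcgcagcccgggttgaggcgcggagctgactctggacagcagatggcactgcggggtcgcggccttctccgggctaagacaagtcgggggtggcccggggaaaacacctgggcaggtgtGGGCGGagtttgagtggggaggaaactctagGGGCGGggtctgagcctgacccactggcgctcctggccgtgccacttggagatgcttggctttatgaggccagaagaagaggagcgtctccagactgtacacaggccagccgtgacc
Cftr: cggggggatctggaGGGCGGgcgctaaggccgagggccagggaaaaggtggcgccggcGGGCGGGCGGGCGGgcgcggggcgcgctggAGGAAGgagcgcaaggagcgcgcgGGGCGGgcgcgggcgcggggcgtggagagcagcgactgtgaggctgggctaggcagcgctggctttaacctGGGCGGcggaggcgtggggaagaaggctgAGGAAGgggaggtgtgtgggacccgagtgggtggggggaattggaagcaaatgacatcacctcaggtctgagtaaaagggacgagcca
Fxyd4: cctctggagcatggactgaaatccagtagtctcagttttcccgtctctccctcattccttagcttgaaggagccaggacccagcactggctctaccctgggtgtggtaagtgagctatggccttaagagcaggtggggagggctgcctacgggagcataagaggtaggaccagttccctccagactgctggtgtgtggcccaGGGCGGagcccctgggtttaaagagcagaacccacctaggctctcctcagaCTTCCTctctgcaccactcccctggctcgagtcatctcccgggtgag
On both strands, overlapping matches included, the Cftr window held 6 GC boxes, Scnn1g held 2, and Scnn1b and Fxyd4 held 1 each. A GC box was present in 35.7% of all 32851 promoter windows of this length. The ETS core was found 2 times in Cftr, 1 time in Scnn1b and 1 time in Fxyd4, and not in Scnn1g, against 35.4% of all windows with at least 1. The steroid receptor hexamer TGTTCT (19% of all windows, both strands), the TATA box, searched as TATAAA and its reverse complement (13.6%), and the palindromic oestrogen response element (0.07%) were in none of the 6 windows. Such matches are letters in a window and describe no binding.

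Over the 6 pregnant time points, 6 of the 7 genes differed by the moderated F test (adjusted p between 4.97e-08 for Scnn1b and 0.000192 for Atp1b1), where 37.9% of all genes tested did. Scnn1a was the exception, with an adjusted p of 0.0588. Its F test stayed above the threshold in 9 of 12 alternatives (adjusted p 0.0039 to 0.0843 over all 12). It passed with median scaling, with cyclic loess and without the libraries high in placenta and yolk sac genes. With 1 library left out it stayed above in 25 of 32 fits (0.0142 to 0.144 over all 32). From E6.5 to E17.5, 6 of 7 rose and none fell, against 12.3% of all genes that rose and 17% that fell, and the median log2 change was 1.93 over the 7 genes and -0.04 over all genes. Compared with NP, E17.5 was higher for 3 of 7 (Scnn1b, Scnn1g and Fxyd3, all genes called higher 14.1%) and lower for 1 (Fxyd4, all genes called lower 19.1%). Scnn1b and Atp1b1 rose between E8.5 and E10.5 (2 of 7, all genes called higher 2.25%), and Cftr and Fxyd4 rose between E12.5 and E15.5 (2 of 7, all genes 0.871%). Cftr and Fxyd4 had fallen between NP and E6.5 (2 of 7, all genes called lower 3.63%). Of the 7 genes, 0 passed the threshold between E6.5 and E8.5 (3.85% of all genes did in either direction), between E10.5 and E12.5 (1.35%) and between E15.5 and E17.5 (0.439%).

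**Figure D3:**
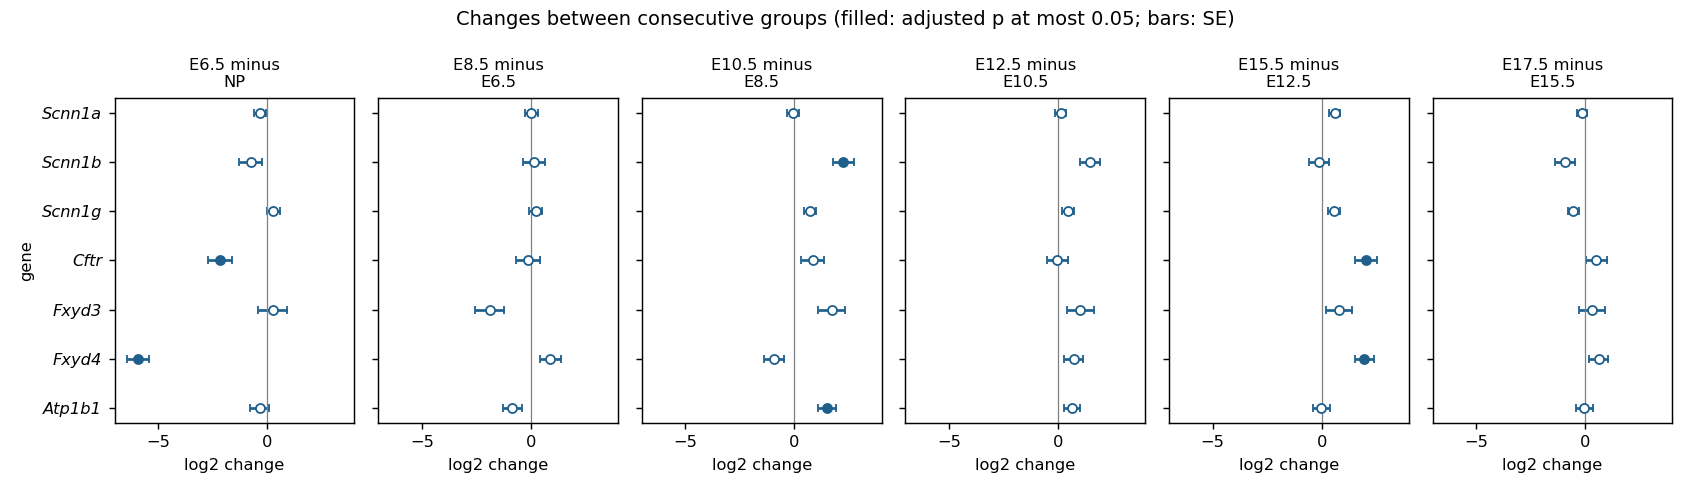
Log2 change (horizontal axis) of each gene (vertical axis) between consecutive groups, with the SE of the fit as bars; filled points have an adjusted p of at most 0.05. The largest is the fall of Fxyd4 from NP to E6.5 (-5.93), and the filled rises are Scnn1b and Atp1b1 at E10.5 and Cftr and Fxyd4 at E15.5.

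Scnn1b, the beta subunit, was detected in all mice but 1 and rose by E10.5. Its log2 signal was 6.34, 7.32, 8.25 and 8.67 in the 4 NP mice and 6.32, 7.36, 6.94 and 6.94 at E6.5. It was 7.90, 8.13, 4.60 and 7.53 at E8.5 and 8.84, 9.40, 9.12, 10.00 and 9.12 at E10.5. It reached 11.13, 11.08, 11.18, 10.12 and 10.31 at E12.5, 10.43, 11.33, 10.51, 10.71 and 10.13 at E15.5, and then 9.73, 10.20, 9.37, 9.56 and 9.64 at E17.5. Every mouse from E10.5 on was above every NP, E6.5 and E8.5 mouse, and the lowest mouse of all was replicate 3 of E8.5. The log2 change from E8.5 to E10.5 was 2.25 ± 0.48 (SE), 4.77-fold, with an adjusted p of 0.00523. Without replicate 3 of E8.5 it was 1.44 ± 0.37 with an adjusted p of 0.0343, and with only the groups compared in the fit the call was lost (adjusted p 0.0683). From E6.5, Scnn1b was 14.7-fold higher at E12.5 (log2 change 3.88 ± 0.48, adjusted p 6.14e-07, all genes called higher 11.6%) and 7.03-fold higher at E17.5 (2.81 ± 0.48, adjusted p 4.10e-05). The step from E10.5 to E12.5 was 1.47 ± 0.46 on the log2 scale with groups that did not overlap, and its adjusted p of 0.114 missed the threshold, although it was called in the fit without replicate 3 of E8.5. The step from E15.5 to E17.5 was -0.92 ± 0.46, and its adjusted p of 0.596 missed the threshold (0.0518 before adjustment, moderated t test). These groups overlapped, with replicate 2 of E17.5 (10.20) above replicate 5 of E15.5 (10.13). From E12.5 to E17.5 the change was -1.07 ± 0.46, not called either (adjusted p 0.172). With so few mice and an adjustment over all genes, these tests do not decide whether Scnn1b fell late. Scnn1b was also 3.14-fold higher at E10.5 than in NP (1.65 ± 0.48, adjusted p 0.0104, all genes called higher 11.4%), a call lost without replicate 1 of NP (adjusted p 0.0666).

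Scnn1g, the gamma subunit, was not detected in any NP or E6.5 mouse and in every mouse from E12.5. The log2 signal was 4.41, 4.34, 4.40 and 4.37 in NP, and 4.53, 4.96, 4.60 and 4.57 at E6.5. It was 5.07, 5.48, 4.44 and 4.57 at E8.5, where 2 of 4 mice were detected, and 5.77, 4.63, 5.84, 6.40 and 5.42 at E10.5, where 4 of 5 were. At E12.5 the values were 6.5, 5.51, 6.51, 5.59 and 6.19, at E15.5 they were 6.09, 7.07, 6.70, 6.72 and 6.58, and at E17.5 they were 6.68, 6.02, 5.56, 5.72 and 6.52. The mice rose gradually over the days, so that neighbouring groups overlapped from E8.5 on while E12.5, E15.5 and E17.5 lay entirely above E6.5. For a gene with no detected mouse in 1 group, only a bound on the fold can be given, computed against the lowest signal of a detected probe on each array. The bound is on the difference of group means and does not include the spread between mice. Scnn1g was at least 3.13-fold higher at E15.5 than at E6.5 (fitted log2 change 1.97 ± 0.28, adjusted p 3.59e-06) and at least 2.16-fold higher at E17.5 (1.43 ± 0.28, adjusted p 0.000213). Compared with NP it was at least 3.16-fold higher at E15.5 (2.25 ± 0.28, adjusted p 2.96e-07, all genes called higher 13.5%). No step between consecutive groups passed the threshold, and the step from E8.5 to E10.5 was 0.72 ± 0.28 with an adjusted p of 0.151. The earliest called rise from E6.5 was at E10.5 (0.95 ± 0.28, adjusted p 0.0137, all genes called higher 9.75%), and it was lost without replicate 4 of E10.5 (0.75, adjusted p 0.0567) or without the libraries high in placenta and yolk sac genes (0.75, adjusted p 0.0688).

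Scnn1a, the alpha subunit that the complete channel needs, stayed near background. The log2 signal was 4.55, 5.16, 5.00 and 5.61 in NP and 4.76, 4.66, 4.75 and 4.87 at E6.5. It was 5.17, 4.66, 4.48 and 4.85 at E8.5, and 4.45, 5.25, 4.56, 4.72 and 4.59 at E10.5. It was 4.28, 4.70, 5.19, 4.67 and 5.37 at E12.5, 5.61, 4.79, 4.70, 6.10 and 6.08 at E15.5, and 4.80, 5.75, 5.36, 5.33 and 5.27 at E17.5. The probe was detected in 3 of 4 NP mice, 0 of 4 at E6.5, 1 of 4 at E8.5, 1 of 5 at E10.5, 2 of 5 at E12.5, 3 of 5 at E15.5 and 4 of 5 at E17.5. At E15.5 the mice split, with 3 between 5.61 and 6.10 and 2 at the level of earlier days, and each pair of groups overlapped. Of all 21 comparisons, 2 passed the threshold: E15.5 was above E6.5, where no mouse was detected, by at least 1.38-fold (fitted log2 change 0.69 ± 0.27, adjusted p 0.0488, where 12% of all genes were called higher) and above E10.5 (0.74 ± 0.25, adjusted p 0.0495, where 5.72% were). These calls were lost on leaving out 1 of 20 libraries for the comparison with E6.5 (adjusted p up to 0.148) and 1 of 23 for that with E10.5 (up to 0.158). A signal this close to background limits what the probe can show, and levels of different probes cannot be ranked on an array, so the proportion of the subunits to each other was not measured.

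Cftr, the chloride and bicarbonate channel, was high in part of the NP mice, at background at E6.5 and E8.5, and high again in every late mouse. Its log2 signal was 9.11, 8.20, 4.83 and 5.44 in NP, 4.41, 4.85, 4.64 and 4.98 at E6.5, and 4.63, 4.79, 4.50 and 4.51 at E8.5. At E10.5 it was 5.39, 5.57, 6.11, 5.18 and 5.00, and at E12.5 it was 5.58, 5.15, 5.01, 5.10 and 6.24. At E15.5 it was 8.21, 6.67, 7.59, 7.74 and 7.06, and at E17.5 it was 7.86, 7.50, 8.61, 7.61 and 8.21. No mouse at E6.5 or E8.5 was detected, 4 of 5 were at E10.5 and at E12.5, and all were at E15.5 and E17.5, where each was above each E6.5 to E12.5 mouse. From E12.5 to E15.5 Cftr rose 4.10-fold (log2 change 2.04 ± 0.49, adjusted p 0.0275). That call was lost without any 1 of 7 libraries (E12.5 replicates 1 to 4 and E15.5 replicates 1, 3 and 4, adjusted p 0.0525 to 0.102) and without those high in placenta and yolk sac genes (2.15, adjusted p 0.0612), while the change stayed between 1.85 and 2.24. From E6.5 to E17.5 it was at least 7.84-fold higher (fitted 3.24 ± 0.52, adjusted p 1.68e-05), and this comparison was called without each single library. E17.5 and NP differed by 1.06 ± 0.52 (95% confidence interval 0.00 to 2.12, adjusted p 0.125). The NP mean lay above the E6.5 mean by at least 3.75-fold (fitted E6.5 minus NP -2.18 ± 0.55, 95% confidence interval -3.3 to -1.06, adjusted p 0.00926). However, NP replicate 3, not detected, was within the range of the E6.5 mice. The fall was not called without NP replicate 1 (-1.44, adjusted p 0.0607) or NP replicate 2 (-1.74, adjusted p 0.0631). When the fit held the NP and E6.5 arrays alone it was not called either (adjusted p 0.209).

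Fxyd4, known in kidney and colon as the corticosteroid-induced pump regulator CHIF, had the largest difference of the 7 genes. The log2 signal was 9.54, 9.31, 11.86 and 11.82 in NP, and 4.81, 4.70, 4.61 and 4.68 at E6.5. It was 5.32, 5.58, 4.61 and 6.84 at E8.5, then 4.39, 4.82, 4.77, 4.62 and 4.68 at E10.5. It was 5.37, 5.00, 4.96, 6.09 and 5.39 at E12.5, 7.10, 7.64, 7.87, 6.57 and 7.42 at E15.5, and 8.15, 6.33, 8.43, 8.63 and 8.10 at E17.5. All NP mice were above every pregnant mouse, the E6.5 and E10.5 mice were all undetected, and E15.5 lay above E12.5 without overlap. NP was at least 50-fold above E6.5 (fitted E6.5 minus NP -5.93 ± 0.49, adjusted p 1.04e-09). At E17.5 Fxyd4 was still 6.51-fold below NP (-2.70 ± 0.47, adjusted p 3.47e-05) and at least 7.68-fold above E6.5 (fitted 3.23 ± 0.47, adjusted p 3.77e-06). The rise from E12.5 to E15.5 was 3.88-fold (1.96 ± 0.44, adjusted p 0.0158). The second Fxyd4 probe followed the same course, with 8.59, 8.32, 10.89 and 10.90 in NP, no detected mouse at E6.5 or E10.5, and 7.25, 5.86, 7.72, 7.77 and 7.12 at E17.5. With that probe the fall from NP to E6.5 was -4.94 ± 0.44 (adjusted p 3.42e-09) and the rise from E12.5 to E15.5 was 1.43 ± 0.39, whose adjusted p of 0.0625 missed the threshold. The call for that rise was also lost without replicate 2 or 3 of E12.5 or replicate 3 of E15.5 (adjusted p 0.0555 to 0.059) and without the libraries high in placenta and yolk sac genes (1.57, adjusted p 0.145).

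Fxyd3, which binds the pump in many epithelia, was detected in all mice but 1. Its log2 signal was 12.04, 9.80, 9.31 and 8.85 in NP, 9.83, 10.56, 10.43 and 10.17 at E6.5, and 9.56, 9.77, 4.85 and 9.25 at E8.5. It was 9.54, 10.12, 10.73, 9.53 and 10.41 at E10.5, and 10.82, 10.74, 10.94, 11.22 and 11.75 at E12.5. It was 12.09, 11.18, 11.89, 11.83 and 12.41 at E15.5, and 12.25, 11.78, 12.53, 12.29 and 12.05 at E17.5. The E12.5 to E17.5 mice were all above the E6.5, E8.5 and E10.5 mice, NP replicate 1 was as high as late pregnancy, and replicate 3 of E8.5 was the only mouse without a detected signal. From E6.5 to E17.5 Fxyd3 rose 3.81-fold (log2 change 1.93 ± 0.63, adjusted p 0.0206). The call was lost without replicate 1 of E6.5 (1.79, adjusted p 0.0609) or without the libraries high in placenta and yolk sac genes (2.11, adjusted p 0.0586). E17.5 was 4.53-fold above NP (2.18 ± 0.63, adjusted p 0.00784) and, without those libraries, 2.13 on the log2 scale with an adjusted p of 0.0738. No consecutive step was called, and the lower mean of E8.5 than of E6.5 (-1.89 ± 0.67, adjusted p 0.112) included the undetected mouse.

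Atp1b1, the pump subunit, was detected in every mouse. The log2 signal was 8.22, 8.80, 11.01 and 10.93 in NP, 9.02, 9.85, 9.35 and 9.34 at E6.5, and 8.94, 9.22, 7.21 and 8.84 at E8.5. It was 9.80, 9.88, 10.17, 10.05 and 10.39 at E10.5, and at E12.5 it was 10.68, 10.70, 10.61 and 11.00 in 4 mice and slightly below these in replicate 4. It was 10.72, 10.60, 10.91, 10.27 and 10.95 at E15.5, and 10.55, 11.37, 10.40, 10.34 and 10.56 at E17.5. From E12.5 on the group means stayed between 10.65 and 10.70, above every E6.5 and E8.5 mouse, and 2 NP mice were as high. Atp1b1 rose 2.84-fold from E8.5 to E10.5 (log2 change 1.5 ± 0.41, adjusted p 0.0293), and the call rested on replicate 3 of E8.5, without which the change was 1.06 with an adjusted p of 0.174. It was lost as well without replicate 3, 4 or 5 of E10.5 (adjusted p 0.0536 to 0.0555) and without the libraries high in placenta and yolk sac genes (1.51, adjusted p 0.0519). From E6.5 to E17.5 it rose 2.39-fold (1.26 ± 0.41, adjusted p 0.0186), a call that was lost without replicate 1 of E6.5 (adjusted p 0.0633), without replicate 2 of E17.5 (1.07, adjusted p 0.0592) and without the libraries high in placenta and yolk sac genes (1.04, adjusted p 0.104). The 1.31 ± 0.41 from E6.5 to E12.5 (adjusted p 0.0156) was lost without replicate 1 of E6.5 alone among single libraries (adjusted p 0.0549).

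The 4 NP mice did not share 1 pattern. Replicates 1 and 2 had the higher Cftr (9.11 and 8.20 against 4.83 and 5.44), Fxyd3 (12.04 and 9.80 against 9.31 and 8.85) and epithelial list mean (10.09 and 9.17 against 7.64 and 8.15). Replicates 3 and 4 had the higher Scnn1b (8.25 and 8.67 against 6.34 and 7.32), Fxyd4 (11.86 and 11.82 against 9.54 and 9.31) and Atp1b1 (11.01 and 10.93 against 8.22 and 8.80). The within-group SD in NP was 2.08 for Cftr, 1.42 for Fxyd3, 1.40 for Fxyd4, 1.44 for Atp1b1 and 1.03 for Scnn1b on the log2 scale, and 0.03 for Scnn1g, which was not detected. NP replicate 3 was also 1 of the libraries set apart by placenta and yolk sac genes. Its list mean of 5.19 was high only for its group and lay below every E6.5 mouse (5.40 to 5.69). The mice carry no label that separates them, so these are values of single mice and no comparison.

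**Figure D4:**
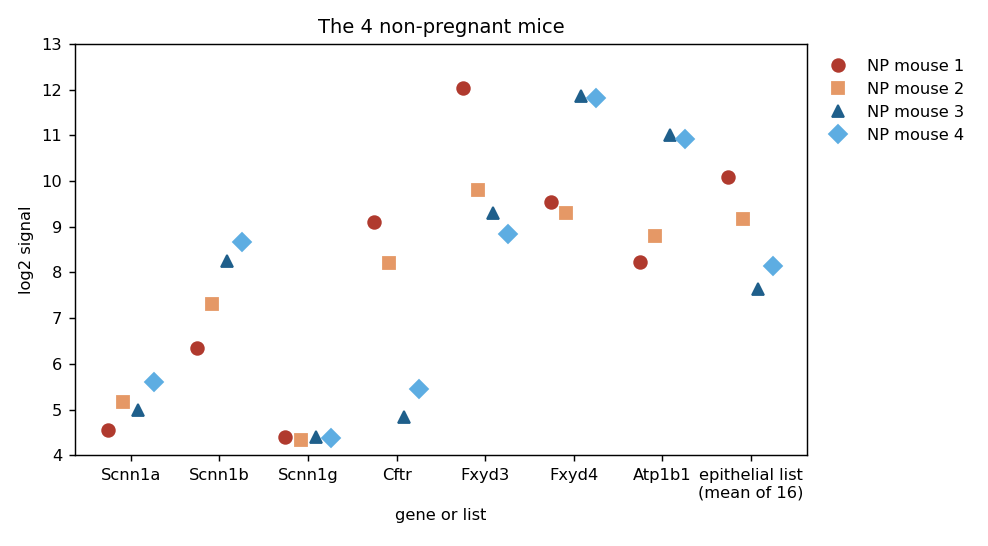
Log2 signal (vertical axis) of the 7 genes and the mean of the 16 epithelial genes (horizontal axis) in each of the 4 NP mice (symbols). Mice 1 and 2 have the higher Cftr (9.11 and 8.20) and mice 3 and 4 the higher Fxyd4 (11.86 and 11.82) and Atp1b1 (11.01 and 10.93).

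In the order of group means, few neighbours differed by an adjusted p of at most 0.05. For Scnn1b the order was E6.5, E8.5, NP, E10.5, E17.5, E15.5 and E12.5, and only NP and E10.5 differed (adjusted p 0.0104). For Cftr it was E8.5, E6.5, E12.5, E10.5, NP, E15.5 and E17.5, and only E10.5 and NP differed (adjusted p 0.0382, all genes called lower at E10.5 14.8%). That call was lost without replicate 1 (-0.71, adjusted p 0.286) or 2 (-1.01, adjusted p 0.194) of NP, without replicate 1, 2, 4 or 5 of E10.5 (adjusted p 0.0548 to 0.0789), with cyclic loess (-1.29, adjusted p 0.081), with array weights (-0.69, adjusted p 0.27) and with only the groups compared (adjusted p 0.233). For Fxyd4 it was E10.5, E6.5, E12.5, E8.5, E15.5, E17.5 and NP, with a difference between E8.5 and E15.5 (adjusted p 0.00662, all genes called higher 9.53%) and between E17.5 and NP (adjusted p 3.47e-05). No neighbours differed for Scnn1g, whose order was that of time except that E15.5 came last, or for Scnn1a, Fxyd3 and Atp1b1. Groups in which no mouse was detected have no order among themselves.

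Across the 32 arrays, which share the time course and the differences in epithelial signal, Scnn1b was most like Atp1b1 and Scnn1g among the 7 genes (Pearson r 0.846 and 0.825). Cftr was most like Fxyd3 (r 0.676) and Fxyd4 (r 0.515), and Fxyd4 had r 0.034 with Scnn1b. Over all genes, the profiles nearest to Scnn1b were Cdo1 (r 0.931), Degs2 (0.928) and Havcr1 (0.903). Those nearest to Scnn1g were Scgb1a1 (0.882), Zfand2a (0.880) and Degs2 (0.879), so that Degs2, a sphingolipid hydroxylase, was in both lists. The nearest to Cftr were Plet1 (0.944), Gtf2f2 (0.923) and Golm1 (0.921), and to Fxyd3 they were Slc35g1 (0.952), the protease Tmprss2 (0.896) and Grb7 (0.890). The nearest to Fxyd4 were Dync1i1 (0.898), Alox12e (0.887) and Slc25a48 (0.868). For Atp1b1 they were the sulfotransferase Sult1d1 (0.865), Scnn1b (0.846) and Ppfibp2 (0.839), and for Scnn1a no gene exceeded 0.644 (Cyb5rl), followed by Thada (0.642) and Lypd3 (0.633).

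Genes that process and control the sodium channel also changed. Proteases such as Prss8 (prostasin), Tmprss4 and St14 (matriptase) can cleave and activate the channel, Spint1 and Spint2 inhibit such proteases, and Sgk1 is a kinase induced by corticosteroids that keeps the channel at the membrane by acting on the ubiquitin ligase Nedd4l. Of 20 genes of this list 18 were measured and 15 differed over pregnancy by the F test (37.9% of all genes did). From E6.5 to E17.5, 10 rose (12.3% of all genes did) and 2, Nedd4 and Wnk4, fell (17% of all genes did), with a median log2 change of 0.60 against -0.04 over all genes. Between E8.5 and E10.5, 6 of 18 rose (2.25% of all genes did) and 0 fell, with a median of 0.30 against -0.02. The log2 change was 2.64 for Tmprss4 (adjusted p 0.0224) and 2.42 for Prss8 (adjusted p 0.000125). The others were St14 (1.51, adjusted p 0.0172), Spint2 (1.11, adjusted p 0.00669), Spint1 (0.97, adjusted p 0.00523) and Sgk1 (0.68, adjusted p 0.0281). Without replicate 3 of E8.5, 2 of the 6 were called, where 2.05% of all genes were in either direction. They were Prss8 (1.84, adjusted p 0.000557) and Spint1 (0.87, adjusted p 0.036), and Tmprss4 was 1.44 with an adjusted p of 0.128. Without the libraries high in placenta and yolk sac genes, 5 of the 6 were called, where 2.72% of all genes were in either direction. Tmprss4 was not called (2.70, adjusted p 0.0543), and the fall of Wnk4 was not either (-0.71, adjusted p 0.0898). Between NP and E6.5, Sgk1 rose by 1.00 (adjusted p 0.000663) and Tsc22d3, a glucocorticoid-induced gene, by 1.17 (adjusted p 0.0227). Spint1 had the smallest F test adjusted p of the list (6.46e-10), with group means of 4.89 (E6.5) and 7.00 (E17.5), and Tmprss2 went from 8.07 to 10.65 (log2 change 2.58, adjusted p 1.65e-05).

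**Figure D5:**
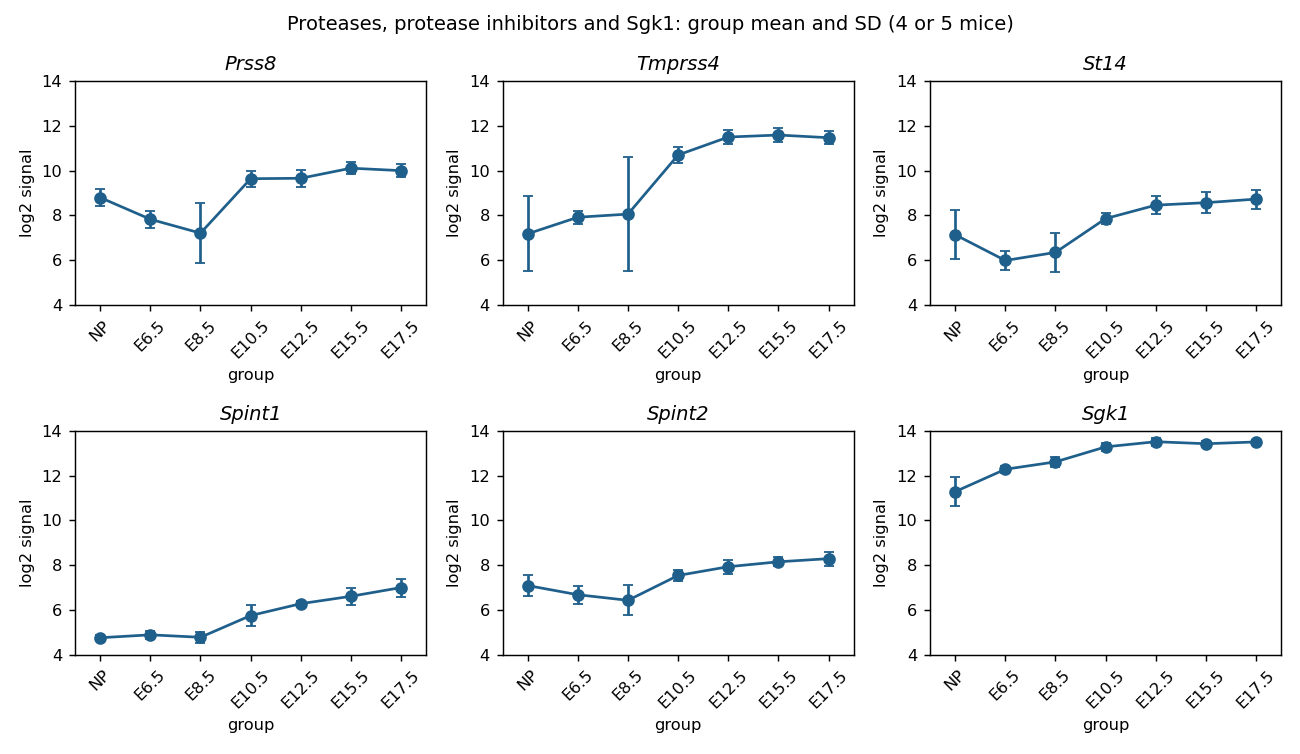
Group mean and SD of the log2 signal (vertical axis) of 3 proteases (Prss8, Tmprss4, St14), 2 protease inhibitors (Spint1, Spint2) and the kinase Sgk1 by group (horizontal axis, 4 mice in NP, E6.5 and E8.5 and 5 in the others). All 6 rose between E8.5 and E10.5 by the test over all arrays, and the wide bars at E8.5 include replicate 3.

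Among other pump and FXYD genes, 8 of 12 were measured and 3 differed over pregnancy (Atp1b2, Atp1b3 and Fxyd5), a share near the 37.9% of all genes. In contrast to Atp1b1, the pump beta subunits Atp1b2 (-1.40, adjusted p 0.000129) and Atp1b3 (-0.49, adjusted p 0.000295) fell from E6.5 to E17.5, and Fxyd2, the gamma subunit of the kidney pump, rose (0.58, adjusted p 0.0483, and 0.66 with an adjusted p of 0.0758 without the libraries high in placenta and yolk sac genes). The FXYD genes moved at different times. Fxyd6 rose between NP and E6.5 (1.60, adjusted p 7.12e-06), where Fxyd4 fell, and Fxyd5 (dysadherin) rose between E6.5 and E8.5 (1.25, adjusted p 0.0031). Atp1b2 fell between E8.5 and E10.5 (-1.03, adjusted p 0.0214), not called without replicate 3 of E8.5 (-0.92, adjusted p 0.095).

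Of 23 genes for chloride and bicarbonate transport and partners of Cftr, 17 were measured and 8 differed over pregnancy (37.9% of all genes did). From E6.5 to E17.5, 5 rose (12.3% of all genes did) and 2, Ano1 and Slc9a3r2, fell (17% of all genes did), with a median log2 change of 0.16. Slc26a4 (pendrin), an exchanger of chloride for bicarbonate and iodide, rose between NP and E6.5 (2.05, adjusted p 3.85e-05), while Cftr fell, and again between E8.5 and E10.5 (1.35, adjusted p 0.00607, and 1.06 with an adjusted p of 0.0558 without replicate 3 of E8.5). Its group means were 5.26 in NP, 7.31 at E6.5 and 9.54 at E17.5. The scaffold genes differed in direction from E6.5 to E17.5, since Slc9a3r1 (1.14, adjusted p 0.000161) and Pdzk1 (2.33, adjusted p 0.000246, and 1.46 without the libraries high in placenta and yolk sac genes) rose and Slc9a3r2 fell (-0.83, adjusted p 5.19e-05). The step of Pdzk1 from E15.5 to E17.5 was 1.81 with an adjusted p of 0.0542.

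Epithelial markers also changed over these days. From NP to E6.5, 10 of 16 fell and 0 rose (median log2 change -1.69, all genes called lower 3.63%), beside a fall of at least 3.75-fold for Cftr and at least 50-fold for Fxyd4, and a change of -0.76 for Scnn1b (adjusted p 0.474) and -0.35 for Atp1b1 (adjusted p 0.773). From E8.5 to E10.5, 6 of 16 rose (median 1.33, all genes called higher 2.25%). Without replicate 3 of E8.5, 2 did (median 0.88, all genes called in either direction 2.05%). Without the libraries high in placenta and yolk sac genes, 3 did (median 1.28, all genes called in either direction 2.72%). From E12.5 to E15.5, 2 of 16 rose (median 1.00, all genes called higher 0.871%), and 0 did without those libraries (median 1.10, all genes called in either direction 0.632%). Between E6.5 and E17.5, 15 of 16 rose (median 2.84, all genes called higher 12.3%, with list means of 6.82 to 7.41 in E6.5 mice against 9.71 to 10.12 in E17.5 mice), beside 2.81 for Scnn1b, 1.93 for Fxyd3 and 1.26 for Atp1b1, and at least 2.97 for Cftr, 2.94 for Fxyd4 and 1.11 for Scnn1g. The part of epithelial content in these changes was not tested. Placenta and yolk sac genes had list means of 5.40 to 5.69 in E6.5 mice against 5.86 to 9.65 in E17.5 mice. Between these days 6 of 13 rose (12.3% of all genes did) and 1 fell (17% of all genes did). The gene that fell was Spink1, which was called higher at E6.5 than in NP and so adds to the E6.5 list means. Without the 7 libraries high in these genes, and so with fewer mice at E17.5, 4 of the 7 transport genes rose from E6.5 to E17.5 (Scnn1b, Scnn1g, Cftr and Fxyd4), where 23.1% of all genes were called in either direction.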

How the data were processed

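RNA of 32 mouse uteri was measured on 1-colour Illumina MouseRef-8 v2 arrays. The authors deposited probe intensity values that were not normalised, with a detection p-value for each probe and array. The log2 values used here were made by the authors with limma: normexp correction by the control beads, then quantile normalisation, then log2. They had first left out 5528 of 25697 probes that were detected (p-value at most 0.05) on none of the arrays. The offset in this correction (16 in the recomputation) compresses changes of low signals. Symbols came from the platform annotation, which named 18903 of 20169 probes, and the probe with the highest SD stood for a gene.

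One model with 7 group means was fitted to 13439 genes with limma 3.58.1 in R 4.3.3 (lmFit, eBayes, two-sided), and p-values were adjusted over all genes of a comparison (Benjamini-Hochberg), with a threshold of 0.05. An adjusted p in the text is from this fit. Each array is 1 mouse, so p-values measure the spread between these mice, and their number limits the precision. Where no array of a group was detected, the fold is a bound on the difference of group means, without the spread between mice. It is taken against the higher, per array, of the probe's value and the lowest signal among detected probes.

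The 7 genes and the lists were chosen with earlier results of these data known. From each pathway list the text names up to 3 genes with the smallest F test p-value and, in each direction, the largest called consecutive change; other list genes were named after their values were seen. For likeness the 3 genes with the highest Pearson r were named. The fits were tested on simulated data. Same-numbered mice are not paired by any label. Alternatives were other background corrections, normalisations, filters, probes, variance models and array weights, a fit of only the groups compared, the replicate number as a block, each library left out, and libraries high in placenta and yolk sac genes left out. The second Fxyd4 probe and the list counts without libraries that stood apart were chosen after seeing the data.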

Additional observations from a re-analysis of the deposited data

Results flagged for a closer look

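Of 49 sets of mice (7 genes in 7 groups), 4 held a mouse whose gap to the nearest other exceeded Dixon's 95% critical value, which chance gives in about 1 of 20 sets. Fxyd3 was 4.85 on the log2 scale in replicate 3 of E8.5, against 9.25 to 9.77 in the other mice of that day, and the epithelial list mean was also lowest in that mouse (5.31). In replicate 2 of E17.5, Fxyd4 was 6.33 (others 8.10 to 8.63) and Atp1b1 was 11.37 (others 10.34 to 10.56), and this mouse had the highest placenta and yolk sac list mean (9.65). The part of these levels in the values was not tested. Scnn1g was 4.96 in replicate 2 of E6.5 (others 4.53 to 4.60), where no mouse of the group was detected.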

How the results depend on the processing

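Alternatives were run for the F tests of the 7 genes and for their changes called in the fit of all arrays. Of 903 such values, 866 kept their direction and side of the threshold, as did 2273 of 2368 values with 1 library left out. Among the called changes 0 reversed, while an F test has no direction. Changes not called at first were not included, some alternatives hardly altered the values, and most left-out libraries lay outside both groups compared. These shares therefore do not measure how robust a single call is. Fitting only the groups compared called 612 genes between NP and E6.5 (1105 in the fit of all arrays) with 1 of the 7 transport genes (2), 12 genes between E15.5 and E17.5 (59), and 2 transport genes between E10.5 and E12.5 (0). With array weights, 1115 genes were called between E6.5 and E8.5 (517), 1096 between E8.5 and E10.5 (622), 491 between E10.5 and E12.5 (182, with 1 transport gene), 385 between E12.5 and E15.5 (192) and 166 between E15.5 and E17.5. Without the libraries high in placenta and yolk sac genes, 365 genes and 1 transport gene were called between E8.5 and E10.5, 85 genes and 1 transport gene (Scnn1a) between E12.5 and E15.5, and 28 genes between E15.5 and E17.5. Without background correction, 1 transport gene was called between E10.5 and E12.5 and 0 between E12.5 and E15.5 (2), where the second Fxyd4 probe gave 1. With 1 library left out, the called genes ranged from 170 to 669 (E6.5 to E8.5), 276 to 836 (E8.5 to E10.5), 91 to 287 (E10.5 to E12.5), 104 to 278 (E12.5 to E15.5) and 22 to 87 (E15.5 to E17.5). The called transport genes ranged from 1 to 2 (NP to E6.5), 1 to 3 (E8.5 to E10.5), 0 to 1 (E10.5 to E12.5) and 0 to 2 (E12.5 to E15.5). The cause of these shifts was not tested.

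With the replicate number as a block, 999 genes were called between E8.5 and E10.5, and Scnn1a from E6.5 to E15.5 was 0.63 with an adjusted p of 0.0696; the other 90 of 92 results did not change their call. Deviations of same-numbered mice had a mean correlation of 0.034 over 90 pairs (lowest -0.411), against -0.009 over 348 other pairs. A mean over pairs cannot exclude something shared by some of them, and what same-numbered mice share was not tested. Fits without the detection filter tested the same 13439 genes, because the probes it had left out have no name in the table used here. Signals of Scnn1a throughout, and of Scnn1g, Cftr and Fxyd4 in early pregnancy, were near background, so folds against groups with no detected mouse are only bounds. Cftr and Fxyd4 were also near background at E12.5 (group means 5.42 and 5.36), and the offset compresses their folds from that day.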
